A study of Mus musculus with 24 samples.

Results

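Hmgcs1, Sqle, Idi1, Fdps, Fdft1, Lss, Cyp51 and Msmo1 encode enzymes of cholesterol synthesis and are grouped by that role. They are 8 of the 52352 annotated mouse genes to which the deposited transcripts could be assigned. Poly-A RNA of the frontal cortex of 24 mice was sequenced in bulk, with 6 mice of each of 4 genotypes from a single cross, 3 males and 3 females in each. Grn+/-:hTDP+ mice were heterozygous for Grn, the progranulin gene, and carried a human TDP-43 transgene. Grn+/-:hTDP- mice carried the reduced Grn dose alone, Grn+/+:hTDP+ mice the transgene alone, and Grn+/+:hTDP- mice neither. The series was designed to ask whether progranulin insufficiency and TDP-43 overexpression interact. Neither the promoter that drives the transgene nor the kind of Grn allele is stated in the labels.

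The mice were 9.44 to 10.07 months old in Grn+/-:hTDP+, 8.19 to 10.79 months in Grn+/-:hTDP-, 9.44 to 10.07 months in Grn+/+:hTDP+ and 9.44 to 10.79 months in Grn+/+:hTDP-. Libraries held 61445842 to 100859149 assigned reads, of which 0.0702 to 0.0869% fell on the 8 genes. The labels could be checked on their own genes. Human TARDBP had 4328 to 8162 reads in every hTDP+ library, against 0 to 2 reads in hTDP- libraries. Grn averaged 26.0 ± 4.11 TPM in Grn+/-:hTDP+ and 25.9 ± 5.62 TPM in Grn+/-:hTDP- mice, against 47.9 ± 6.89 TPM in Grn+/+:hTDP+ and 52.2 ± 7.73 TPM in Grn+/+:hTDP- mice (SD, n = 6 each). Grn groups did not overlap with or without the transgene (exact two-sided permutation test, p = 0.00216, the smallest that 6 against 6 allows). Replicate 2 of Grn+/+:hTDP+ stood apart, listing 40188 transcripts above 0 where every other library listed 65994 to 69846, although it held 97736984 reads. Several values of the 8 genes are given with and without it. Values of the other gene lists, markers included, were not refitted without it.

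Cells make cholesterol from acetyl-CoA. The first steps build mevalonate and isoprenoid units, which are joined into squalene, and squalene is then oxidised, closed into lanosterol and trimmed to cholesterol. Transcription of these genes is driven by the sterol-regulated factor SREBP-2, which is released from the endoplasmic reticulum when membrane sterol is low. The adult brain makes its own cholesterol because the blood-brain barrier keeps lipoprotein cholesterol out. Myelin holds most of it, oligodendrocytes and astrocytes are its main makers in the adult, and neurons also express the enzymes.

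Levels of the 8 genes were compared in TPM, a unit corrected for transcript length and library size, as means over the 24 libraries. Their order was the same in every library: each gene was above the next in 24 of 24. Hmgcs1, the cytosolic synthase that makes HMG-CoA, was the most abundant at 200.3 ± 14.3 TPM (SD, n = 24). Idi1, the isomerase that interconverts the isoprenoid units IPP and DMAPP, was the lowest at 4.36 ± 1.16 TPM, so that Hmgcs1 was 45.9 times as high. Fdps, which joins isoprenoid units into farnesyl diphosphate, had 114.9 ± 10.2 TPM. Fdft1, squalene synthase, had 74.4 ± 4.82 TPM. Sqle, the squalene epoxidase and a later control point of the pathway, had 58.2 ± 4.92 TPM. The steps up to squalene epoxide thus held both the highest and the lowest of the 8. Lss, which closes the epoxide into lanosterol, had 15.9 ± 1.84 TPM. Cyp51, the cytochrome P450 that removes the 14-alpha methyl group, had 45.1 ± 5.96 TPM. Msmo1, which begins removal of the methyl groups at carbon 4, had 86.2 ± 6.40 TPM.

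The genes lie on 7 chromosomes (GRCm38, GENCODE M21). Hmgcs1 spans chr13:119690379-119708260 and Idi1 chr13:8885501-8892451, both on the plus strand. Sqle lies at chr15:59315077-59331192 and Lss at chr10:76531588-76557138, also on the plus strand. Fdps (chr3:89093588-89101959), Fdft1 (chr14:63145150-63179578), Cyp51 (chr5:4081145-4104746) and Msmo1 (chr8:64718139-64733792) lie on the minus strand. All 8 are protein coding and all 8 passed the filter on low counts, which kept 18239 genes.

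Because genes of this pathway share SREBP control, the 250 bases before the RefSeq start of each (GRCm38.p6) were read for known promoter elements. RefSeq entries matched 5 of the 8. Their starts differ from those of the GENCODE spans above. By those spans, part of the windows of Idi1, Lss, Cyp51 and Msmo1 lies inside the gene. That part holds every CCAAT box found for Idi1, Cyp51 and Msmo1. The sterol response element was searched as TCACNCCAC and the CCAAT box as CCAAT, on both strands, and neither overlaps the other. Capitals mark both kinds of match, and sequences run 5′ to 3′ on the gene's own strand.
Hmgcs1 (chr13:119690101-119690350, plus strand): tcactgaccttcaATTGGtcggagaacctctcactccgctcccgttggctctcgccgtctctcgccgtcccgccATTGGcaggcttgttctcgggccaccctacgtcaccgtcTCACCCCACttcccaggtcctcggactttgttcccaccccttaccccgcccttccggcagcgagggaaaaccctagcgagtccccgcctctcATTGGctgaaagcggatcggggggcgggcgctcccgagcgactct
Idi1 (chr13:8885356-8885605, plus strand): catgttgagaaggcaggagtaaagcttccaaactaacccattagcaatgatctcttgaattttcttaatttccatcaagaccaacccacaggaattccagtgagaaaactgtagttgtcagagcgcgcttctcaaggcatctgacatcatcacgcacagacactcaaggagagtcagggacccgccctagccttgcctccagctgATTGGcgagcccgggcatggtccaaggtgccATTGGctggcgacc
Lss (chr10:76531355-76531604, plus strand): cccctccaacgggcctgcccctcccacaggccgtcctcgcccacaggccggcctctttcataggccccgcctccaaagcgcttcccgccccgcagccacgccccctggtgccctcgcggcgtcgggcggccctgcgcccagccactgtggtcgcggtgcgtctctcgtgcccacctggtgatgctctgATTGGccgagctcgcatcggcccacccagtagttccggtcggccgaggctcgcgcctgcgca
Cyp51 (chr5:4104698-4104947, minus strand): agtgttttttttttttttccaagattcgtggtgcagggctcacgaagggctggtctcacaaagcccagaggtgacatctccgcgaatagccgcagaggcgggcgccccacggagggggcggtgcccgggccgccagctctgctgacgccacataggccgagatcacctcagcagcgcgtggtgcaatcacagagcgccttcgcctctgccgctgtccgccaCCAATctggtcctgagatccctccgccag
Msmo1 (chr8:64733579-64733828, minus strand): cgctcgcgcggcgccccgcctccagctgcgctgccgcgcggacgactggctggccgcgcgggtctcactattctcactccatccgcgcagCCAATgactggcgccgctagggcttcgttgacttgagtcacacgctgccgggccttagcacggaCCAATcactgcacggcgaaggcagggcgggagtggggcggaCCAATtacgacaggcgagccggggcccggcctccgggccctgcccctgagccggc
Only Hmgcs1 held the sterol response element in the form searched, TCACCCCAC at positions -137 to -129, counted back from the base before the start. Other forms of the element were not searched, so the other windows are not shown to lack it. Of 32851 promoters of the same length, 1.05% held them. A CCAAT box, the element bound by NF-Y, was in all 5 windows, against 33.8% of promoters. It was present 3 times in Hmgcs1 and in Msmo1, 2 times in Idi1 and a single time in Lss and Cyp51. The GC box GGGCGG, the element bound by Sp1, was also in all 5, against 32.7% of promoters. The E box CACGTG was in 0 of 5, against 6.02%. The windows were richer in G and C than usual in 4 of 5 cases, at 51.2 to 73.6% against a median of 52.4% over all promoters.

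**Figure D1:**
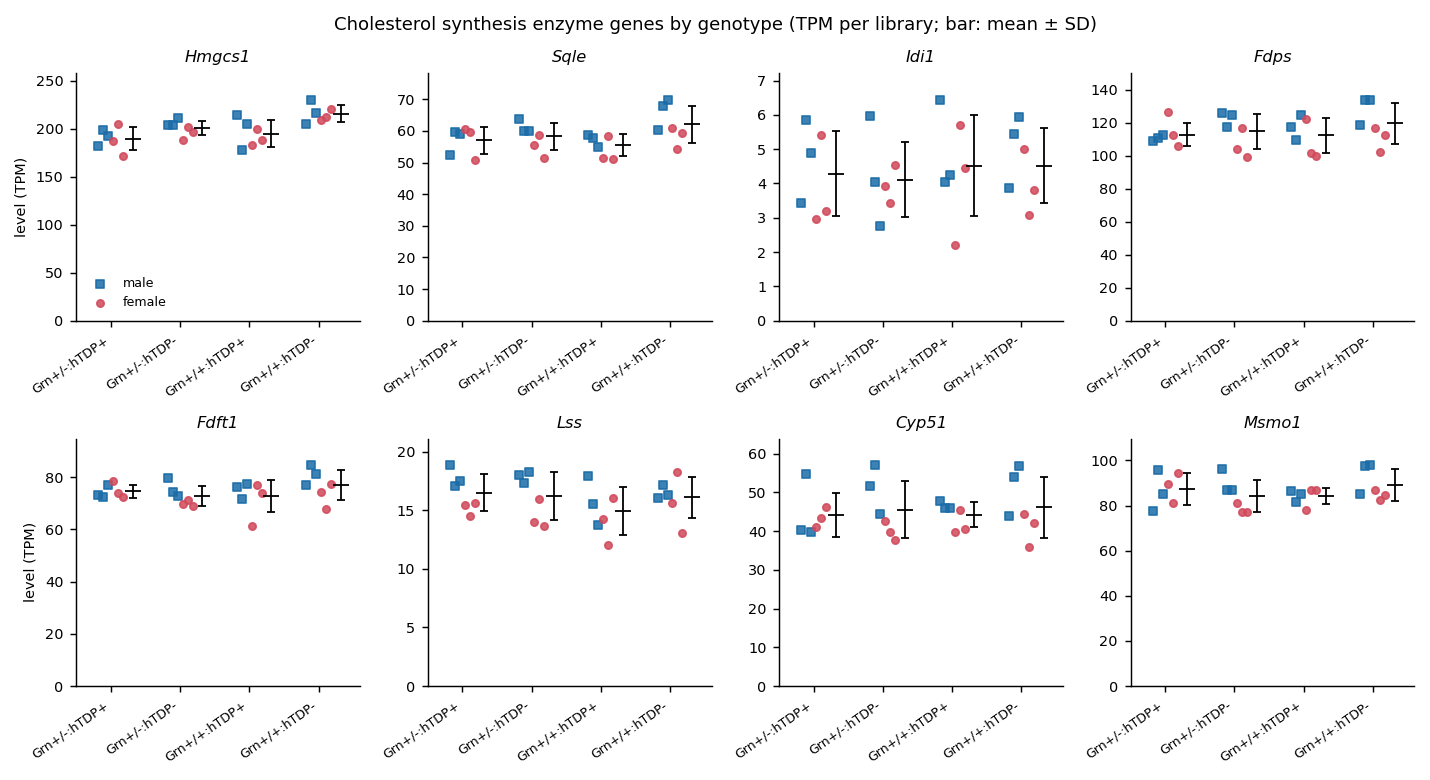
Level of each gene in TPM (vertical axes, from 0) in the 4 genotypes, with a point for each library (squares are males, circles are females) and the mean ± SD beside the points. Hmgcs1 has its highest mean, 215.6 TPM, in Grn+/+:hTDP- mice, whose lowest library (205.3 TPM) is above the highest of Grn+/-:hTDP+ mice (204.7 TPM), and all other sets of points overlap.

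The first comparison asked what the transgene did, averaged over both Grn genotypes. No member passed the test (edgeR's quasi-likelihood test over 18239 genes, called at Benjamini-Hochberg adjusted p under 0.05), a rule that called 0.11% of all genes. The fitted log2 changes of all 8 lay below 0, with a median of -0.03, while the median of all genes was 0.0031 and 48.4% of them lay below 0. Most pairs of members varied together across mice, as given further on. Counts of members on a side of 0 are thus not counts of independent genes, here and in later comparisons. Hmgcs1 had the largest, -0.09 (SE 0.03, adjusted p = 0.519), followed by Sqle at -0.08 (SE 0.04, adjusted p = 0.629). The other 6 lay between -0.03 and -0.0035. Hmgcs1 (edgeR unadjusted p = 0.00842) and Sqle (0.046) were the 2 of 8 at an unadjusted p under 0.05, where 4.24% of all genes were lower in hTDP+ at that level. Without Grn+/+:hTDP+ replicate 2, Sqle was at -0.08 (edgeR unadjusted p = 0.0605). In bulk tissue, fewer cells of a type and less RNA per cell cannot be told apart.

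Fits made in each sex alone gave different signs, a difference that is tested further on. Fitted in males only, all 8 lay below 0, with a median of -0.11 against 0.0054 for all genes. In females only, 6 of 8 lay above 0, with a median of 0.06 against -0.0034 for all genes. With length-scaled TPM counts 2 of 8 lay above 0, and with upper-quartile scaling 1 of 8. Sqle was at -0.15 in males and -0.0050 in females. Hmgcs1 was at -0.10 in males and -0.07 in females. Of the Grn+/-:hTDP- mice, only replicate 3 (9.44 months) shared its age with any hTDP+ mouse. A fit with age as a factor thus has few mice of equal age to compare in Grn+/-. Age differed in range between the genotypes, and with age as a factor Hmgcs1 was at -0.13 (adjusted p = 1) and Sqle at -0.16 (adjusted p = 1).

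Among Grn+/+ mice the transgene was set against its own control. Hmgcs1 had a lowest, median and highest level of 178.3, 194.1 and 214.7 TPM in Grn+/+:hTDP+ mice, against 205.3, 214.3 and 230.3 TPM in Grn+/+:hTDP- mice. The groups overlapped, with 2 of 6 hTDP+ libraries above the lowest hTDP- library. The means were 194.95 ± 14.0 TPM in Grn+/+:hTDP+ and 215.6 ± 8.99 TPM in Grn+/+:hTDP- mice (SD, n = 6 each; exact two-sided permutation test, p = 0.0173). The fitted log2 change was -0.13 (SE 0.04, adjusted p = 0.591), and -0.12 without Grn+/+:hTDP+ replicate 2. Sqle had 51.2, 56.3 and 58.8 TPM in Grn+/+:hTDP+ mice, against 54.3, 60.5 and 69.9 TPM in Grn+/+:hTDP- mice. Again the groups overlapped, and the 2 highest libraries, both males, were hTDP-. Its means were 55.4 ± 3.44 TPM in Grn+/+:hTDP+ and 62.1 ± 5.77 TPM in Grn+/+:hTDP- mice (exact two-sided permutation test, p = 0.0346, n = 6 each), with a fitted log2 change of -0.14 (SE 0.05, adjusted p = 0.608).

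These were 2 of the 3 permutation tests under 0.05 among 32 made on TPM. On TMM-scaled CPM, read counts corrected for library size alone, 1 of the 32 was under 0.05, that of Hmgcs1 with the transgene in Grn+/+ mice. All 8 fitted changes lay below 0 in Grn+/+ mice, from -0.14 to -0.011 with a median of -0.06, and 49.7% of all genes did. Hmgcs1 and Sqle were again the pair at an unadjusted p under 0.05, where 3.23% of all genes were lower. The adjusted rule called 0.0329% of all genes and none of the members.

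Beside these values, oligodendrocyte markers were read in the same mice. In Grn+/+ mice all 15 of 15 lay above 0 for the transgene, with a median log2 change of 0.67, and none passed the test. Their summed level was 2040 to 4348 CPM in Grn+/+:hTDP+ mice, against 1270 to 3109 CPM in Grn+/+:hTDP- mice, and none of the 15 was at 0. Mural and meningeal markers (8 of 8, median 0.32), blood markers (5 of 5, median 0.55) and choroid plexus and ependymal markers (5 of 5 measured, median 0.64) also lay above 0, and 7 of 8 excitatory neuron markers lay below 0 (median -0.09). The part of these cell types in the members' values was not tested in the group comparison. Across mice, with genotype and sex means taken off, the members' correlations with the oligodendrocyte list ranged from -0.31 to 0.32, with a median r of 0.07 over the 8 genes. Those with the excitatory neuron list ranged from -0.57 to 0.53. Of all 80 relations between 8 members and 10 marker lists, 0 passed at an adjusted p under 0.05 by Pearson's r or Spearman's rho (permutation test, n = 24).

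Among Grn+/- mice the transgene comparison gave 4 members above 0 and 4 below, with a median log2 change of 0.0022. Hmgcs1 had 171.6, 189.9 and 204.7 TPM in Grn+/-:hTDP+ mice, against 188.7, 202.5 and 211.3 TPM in Grn+/-:hTDP- mice. The groups overlapped over most of their range (exact two-sided permutation test of the means, p = 0.0758, n = 6 each). Its fitted change was -0.05 (95% interval -0.13 to 0.04), and that of Sqle was -0.01 (-0.12 to 0.09). The adjusted rule called 0.0219% of all genes and no member.

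**Figure D2:**
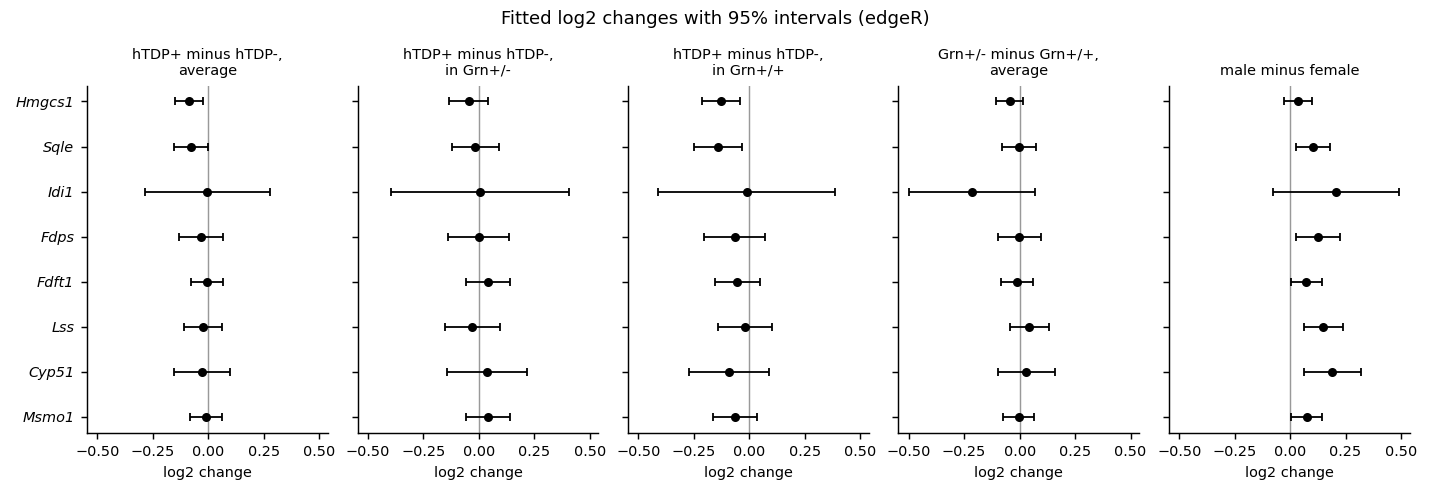
Fitted log2 change of each gene (points) with its 95% interval (bars) in 5 comparisons, positive values being higher in the group named first in each heading. The intervals of Hmgcs1 and Sqle exclude 0 for the average transgene comparison and in Grn+/+ mice, those of 6 genes exclude 0 for males against females, and no gene passed the test adjusted over 18239 genes.

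Whether the transgene acted differently in the Grn genotypes was tested directly, as the change in Grn+/- minus that in Grn+/+. It lay above 0 for 7 of 8 members, with a median of 0.09, from -0.01 in Lss to 0.13 in Cyp51. Sqle was at 0.13 (95% interval -0.03 to 0.28) and Hmgcs1 at 0.08 (-0.04 to 0.21). No member passed, with a smallest unadjusted p of 0.102, and the edgeR test called 0% of all genes, with 434 of 18239 at an unadjusted p under 0.05. DESeq2 called 3. Both intervals include 0, and neither shows that the genotypes responded alike.

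The Grn genotypes were compared in the same way. Averaged over the transgene, 2 members lay above 0 and 6 below, from -0.21 in Idi1 to 0.04 in Lss, and the rule called 0.0219% of all genes and no member. Idi1 was the gene with the widest interval (-0.50 to 0.07), and it had only 223 to 566 reads per library. Hmgcs1 was at -0.05 (-0.11 to 0.02). Without the transgene, Hmgcs1 had 201.0 ± 7.59 TPM in Grn+/-:hTDP- mice and 215.6 ± 8.99 TPM in Grn+/+:hTDP- mice (SD, n = 6 each; exact two-sided permutation test, p = 0.0108). The ranges overlapped, at 188.7 to 211.3 TPM in Grn+/-:hTDP- and 205.3 to 230.3 TPM in Grn+/+:hTDP- mice. Its fitted change there was -0.09 (SE 0.04, adjusted p of edgeR's test = 1), where 0.011% of all genes and no member were called, and on CPM the exact permutation test gave p = 0.0584 (n = 6 each). With the transgene, Hmgcs1 averaged 189.5 ± 11.96 TPM in Grn+/-:hTDP+ mice and 194.95 ± 14.0 TPM in Grn+/+:hTDP+ mice (exact permutation test, p = 0.476, n = 6 each). There the rule called 0.00548% of all genes and no member. Grn itself, at -0.84, was not called there (edgeR adjusted p = 0.254), though it was without the transgene (-0.98, edgeR adjusted p = 0.0440). The rule can thus miss a change of that size.

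Mice with both changes were last set against mice with neither. Hmgcs1 averaged 189.5 TPM in Grn+/-:hTDP+ mice and 215.6 TPM in Grn+/+:hTDP- mice, and the groups did not overlap, the highest Grn+/-:hTDP+ library having 204.7 TPM and the lowest Grn+/+:hTDP- library 205.3 TPM. On CPM they did overlap, with a highest level of 331.1 CPM in Grn+/-:hTDP+ and a lowest of 326.6 CPM in Grn+/+:hTDP- mice. The fitted change was -0.13 (SE 0.04, unadjusted p = 0.00489, edgeR adjusted p = 0.379). The other 7 lay from -0.22 to 0.02, and none of the 8 was called, against 0.0768% of all genes. Grn+/+:hTDP- mice, in which Hmgcs1 had its highest mean, enter every genotype comparison except the transgene in Grn+/- mice and Grn with the transgene. The values of Hmgcs1 in those comparisons, the average transgene comparison included, are therefore not independent of each other.

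Between the sexes all 8 lay above 0, that is higher in males, with a median log2 difference of 0.12, while the median of all genes was 0.0013 and 49.3% lay below 0. At an unadjusted p under 0.05, 6 of 8 were higher in males, a level reached by 3.07% of all genes in that direction. Because members varied together across mice, these counts too are not of independent genes. No member passed the adjusted test, which called 0.0713% of all genes, and the smallest adjusted p of edgeR's test was 0.558. Lss was at 0.15 (SE 0.04, unadjusted p = 0.00173), Cyp51 at 0.19 (SE 0.06, unadjusted p = 0.00549) and Sqle at 0.10 (SE 0.04, unadjusted p = 0.00932). Fdps was at 0.13, Msmo1 at 0.08, Fdft1 at 0.07 (0.06 without Grn+/+:hTDP+ replicate 2, unadjusted p = 0.0801), Idi1 at 0.21 and Hmgcs1 at 0.04.

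The male libraries were not separate from the female ones. Lss had 39.5, 42.9 and 47.5 CPM (lowest, median and highest) in 12 males, against 32.6, 39.7 and 43.1 CPM in 12 females. Of the 12 males, 11 were above the female median. Cyp51 had 64.5, 78.7 and 91.1 CPM in males, against 56.3, 70.0 and 77.3 CPM in females. Here 9 of 12 males were above the female median, and the spread of males was wider. Hmgcs1 showed the smallest difference, with 326.9 ± 21.7 CPM in males and 318.9 ± 17.4 CPM in females (SD, n = 12 each). Within genotypes, the male mean was the higher in 4 of 4 for Hmgcs1, Idi1, Lss and Cyp51. It was the higher in 3 of 4 for Sqle, Fdps, Fdft1 and Msmo1, the exception each time being Grn+/-:hTDP+.

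The sexes were then compared with and without the transgene. The ratio of the male to the female mean CPM had a median of 1.02 over the 8 genes in hTDP+ mice, from 0.999 to 1.07. In hTDP- mice the median was 1.14, from 1.04 to 1.26, and the male mean was higher for 8 of 8. In TPM the ratio had a median of 1.03 in hTDP+ mice, from 0.990 to 1.21, and of 1.13 in hTDP- mice, from 1.03 to 1.27. For Lss the TPM ratio was 1.14 in hTDP+ and 1.14 in hTDP- mice, and for Idi1 it was 1.21 in hTDP+ and 1.18 in hTDP- mice. For Hmgcs1 it was 1.03 in hTDP+ and 1.03 in hTDP- mice. Lss, Idi1 and Hmgcs1 thus did not show the contrast in that unit. Fdps had 58.7 ± 3.68 CPM in hTDP+ males and 57.9 ± 5.73 CPM in hTDP+ females, and 64.6 ± 3.35 CPM in hTDP- males and 55.1 ± 3.74 CPM in hTDP- females (SD, n = 6 each). In hTDP- mice its sexes did not overlap, with males from 60.6 to 68.6 CPM and females from 50.7 to 59.3 CPM. Fdps was the single gene of the 8 apart in this way.

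The difference itself, the transgene change in males minus that in females, was tested after these values had been seen. All 8 lay below 0, while the median of all genes was 0.0044. Fdps was at -0.21 (SE 0.09, unadjusted p = 0.0226), Msmo1 at -0.15 (SE 0.06, unadjusted p = 0.0196) and Sqle at -0.15 (SE 0.07, unadjusted p = 0.038). With Cyp51 (-0.24) and Fdft1 (-0.14) these made 5 of 8 at an unadjusted p under 0.05. That level was reached by 4.15% of all genes, counted in both directions. None passed adjustment over all genes (edgeR adjusted p = 0.958 for Fdps, Msmo1 and Sqle), and the rule called 0% of them. Hmgcs1 was at -0.04 (95% interval -0.16 to 0.09) and Lss at -0.09 (-0.27 to 0.08).

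**Figure D3:**
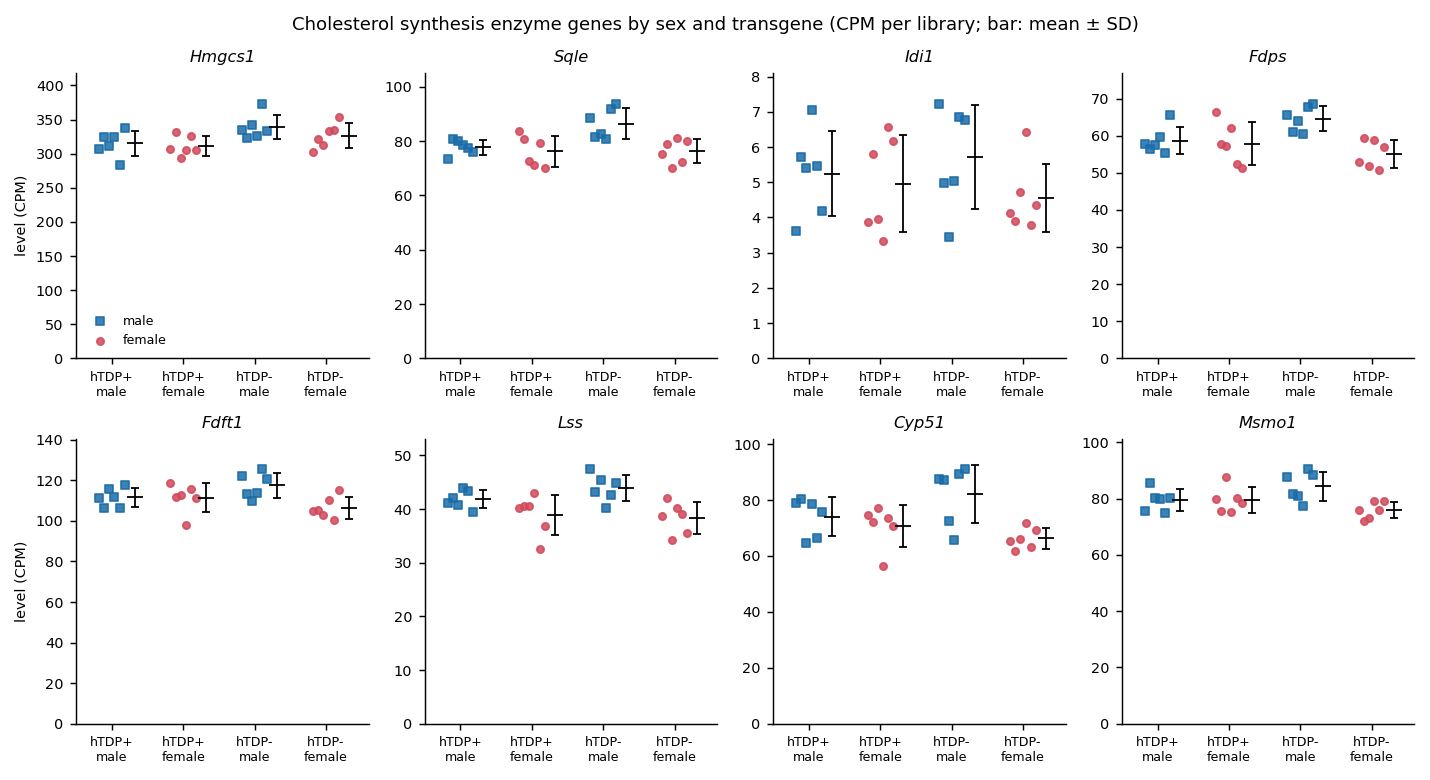
Level of each gene in CPM (vertical axes, from 0) in males and females with and without the transgene, with a point for each library and the mean ± SD of 6 libraries beside the points. In hTDP- mice the male mean is above the female mean for 8 of 8 genes, while in hTDP+ mice the ratio of means is 0.999 to 1.07 (0.990 to 1.21 in TPM).

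Oligodendrocyte markers lay on the other side of 0 between the sexes. All 15 of 15 lay below 0, with a median log2 difference of -0.28, and none passed the test. Their summed level had a range of 1380 to 4293 CPM and a median of 1953 CPM in males, against 1270 to 5735 CPM and a median of 2501 CPM in females. Choroid plexus and ependymal markers lay below 0 for 3 of the 5 measured, at a median of -0.55. Their part in the members' values was not tested.

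Across mice most pairs of members varied in the same direction. With genotype and sex means taken off, 23 of 28 pairs had a Pearson r above 0 in log2 CPM, with a median of 0.40 over the range -0.16 to 0.74. Of the 28, 11 pairs passed by Pearson's r and 10 by Spearman's rho (permutation test with 100000 resamples, adjusted over the 28 pairs, n = 24). Pairs of other genes were not counted. These counts thus do not show that the members vary together more than other genes do. The permutation treated the 24 values as independent, although taking off the means leaves fewer independent values. These p-values are therefore too small, and pairs that passed narrowly are uncertain. The closest pair was the last steps measured, Cyp51 and Msmo1, at r = 0.74 and rho = 0.81 (permutation test, adjusted p = 0.0020 and 0.00056). Without the 2 libraries farthest from the median r was 0.73, and in log2 TPM it was 0.75. Fdft1 and Cyp51 had r = 0.67 and rho = 0.75 (permutation test, adjusted p = 0.0038 and 0.0010), and r = 0.60 without 2 libraries, but in log2 TPM r was 0.39 (permutation test, adjusted p = 0.12). Sqle and Fdft1 had r = 0.67 and rho = 0.60 (permutation test, adjusted p = 0.0038 and 0.013), and r = 0.63 without 2, with r = 0.62 in log2 TPM. Sqle took part in 5 of the 11 pairs.

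Set against the mean of the other 7, Sqle had the highest r, 0.86, and Lss the lowest, 0.39. Once genotype and sex means were taken off these became 0.79 and 0.11. Lss passed with Fdps alone (r = 0.53, rho = 0.52; permutation test, adjusted p = 0.0306 and 0.0338), and that relation did not hold: r was 0.45 without 2 libraries (adjusted p = 0.0951) and -0.06 in log2 TPM (adjusted p = 0.793). In log2 CPM Hmgcs1 passed with none of the other 7, its highest r being 0.41 with Fdft1. In log2 TPM it passed with Sqle (r = 0.51, rho = 0.51; permutation test, adjusted p = 0.0461 and 0.0468), as it did in log2 CPM with means left in (r = 0.58, adjusted p = 0.0093). With means left in, all 28 pairs lay above 0 and 18 passed. With log2 TPM in place of log2 CPM 7 passed.

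**Figure D4:**
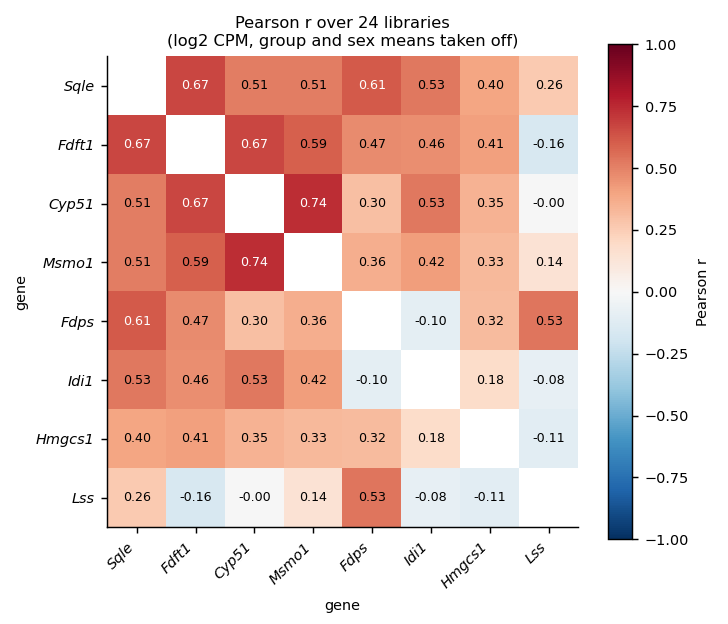
Pearson r of each pair of genes over 24 libraries, in log2 CPM with genotype and sex means taken off (colour scale from -1 to 1; genes ordered by their r with the mean of the other 7). Pairs among Sqle, Fdft1, Cyp51 and Msmo1 lie between 0.51 and 0.74. The r of Fdft1 and Cyp51, 0.67 here, is 0.39 in log2 TPM, and that of Lss and Fdps, 0.53 here, is -0.06.

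Among 14208 other genes with a mean of at least 1 CPM, those most like the mean of the 8 standardised profiles were ranked by Pearson r over the 24 libraries, as a description. Among the first 10 were Acat2, the cytosolic thiolase of the first step, at rank 6 (r = 0.73), and Sc5d, a desaturase of the last steps, at rank 8 (r = 0.72). Snap29, a SNARE protein of membrane fusion, was at rank 1 (r = 0.83), Ctdp1, a phosphatase of RNA polymerase II, at rank 2 (r = 0.80) and Nr4a3, an activity-regulated nuclear receptor, at rank 3 (r = 0.78). Ppm1d (r = 0.74), Rnf41 (r = 0.72) and Spty2d1 (r = 0.72) were also among them. Of other listed genes, Insig1 was at rank 46.

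The rest of the pathway was read through lists of related genes. Of the 15 other genes of cholesterol synthesis 14 were measured, and none passed in any of the 9 comparisons. For the average transgene comparison 11 of 14 lay below 0, with a median log2 change of -0.04. Sc5d was at -0.06 and Nsdhl, a sterol dehydrogenase, at -0.05. Of the 11 genes of sterol sensing and SREBP control 10 lay below 0 and none passed. Srebf2, which encodes SREBP-2, was at -0.08, Mbtps2, a protease that releases it, at -0.09, Stard4, a sterol carrier, at -0.14, and Scap, its escort, at -0.04. All genes together had a median of 0.0031.

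Genes of sterol transport and turnover were divided, with 13 of 19 below 0 and a median of -0.01. In Grn+/+:hTDP+ mice the mean log2 CPM of this list, centred per gene, averaged -0.03 over 6 libraries. Its median there was 0.03 and its lowest library was at -0.43, so the mean leaned on few libraries. Pathway lists were not refitted without Grn+/+:hTDP+ replicate 2. The cholesterol exporters Abca1 and Abcg4 were at -0.12 and -0.06, and the lysosomal carrier Npc2 and the hydroxylase Cyp27a1 at 0.06 and 0.17. Fatty acid synthesis, the other main SREBP programme, had 11 of 11 below 0, with a median of -0.04. Acaca, acetyl-CoA carboxylase, was at -0.13 (edgeR adjusted p = 0.176), Fasn, fatty acid synthase, at -0.12 (adjusted p = 0.435), Acly, which makes cytosolic acetyl-CoA, at -0.08 and Elovl6, an elongase, at -0.08. In TPM the direction of Fasn differed between the Grn genotypes, with means of 111.2 ± 13.7 in Grn+/-:hTDP+ and 107.2 ± 7.82 in Grn+/-:hTDP- mice, and of 103.9 ± 5.35 in Grn+/+:hTDP+ and 107.8 ± 8.40 in Grn+/+:hTDP- mice (SD, n = 6 each). None of either list passed the test.

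Between the sexes the other synthesis genes were divided 12 above 0 in males and 2 below, with a median of 0.06. Named after their values were seen, Mvd (0.18), Dhcr7 (0.10), Acat2 (0.10) and Sc5d (0.07) were among those at an unadjusted p under 0.05. Fatty acid synthesis genes had 3 of 11 above 0 and a median of -0.0073, and none was at an unadjusted p under 0.05. The difference between these lists was not tested.

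Last, the transcripts behind each gene's total were compared. Sqle, Idi1, Fdps, Cyp51 and Msmo1 each had a single transcript with 94.6 to 98.6% of the gene's reads. Hmgcs1 was divided between the coding transcripts Hmgcs1-201, with 72.8 ± 2.85%, and Hmgcs1-202, with 27.0 ± 2.83% (SD, n = 24). Fdft1 had Fdft1-201 at 74.0 ± 4.11% and Fdft1-204 at 25.9 ± 4.13%. Lss differed from the other 7: its only abundant coding transcript, Lss-201, held 42.4 ± 4.29% of its reads. The retained-intron transcript Lss-204 held 47.8 ± 3.51% and Lss-207, also with a retained intron, 6.69 ± 2.33%. Per length the order turned round, Lss-201 making up 45.01% and Lss-204 33.0% of the TPM of Lss.

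Usage of transcripts was tested where at least 2 held 5% or more of the reads, which left Hmgcs1, Fdft1 and Lss. None passed for the transgene or for Grn (edgeR's diffSpliceDGE over 7876 genes, adjusted p = 1 for all 3), where 0.0508% and 0.0127% of genes were called. This usage test recovered only 23.5% of 2-fold shifts in simulated data, so changes of usage could be missed. In the same simulated data limma's usage test recovered 45% of the shifts, with 4 false calls. With that test Lss had an unadjusted p of 0.0321 for the transgene (adjusted p = 0.283). The lowest share of Fdft1-201 was 57.5%, in Grn+/+:hTDP+ replicate 2, the library with few transcripts above 0.

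**Figure D5:**
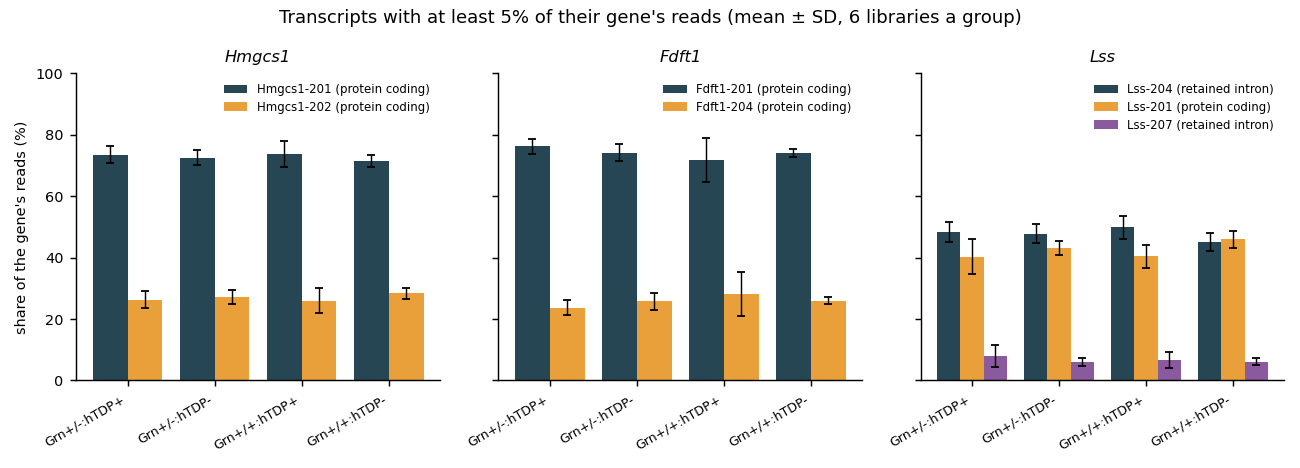
Share of each gene's reads (vertical axis, in percent) on its transcripts with at least 5%, as the mean ± SD of 6 libraries in each genotype, for the 3 genes with more than a single such transcript. Lss-204, with a retained intron, holds 47.8% and the coding Lss-201 42.4% of the reads of Lss over all libraries.

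Some reads could belong to neighbours or copies. Part of Fdft1 overlaps Ctsb, the gene of the protease cathepsin B, on the opposite strand, over 16.6% of its 75-base windows, and Ctsb had a mean of 41687 reads. Cyp51 overlapped Akap9 on the opposite strand over 2.07% of its windows, and Akap9 had a mean of 5278 reads. Hmgcs1 overlapped 2 genes on the opposite strand, Gm48342 (8.93% of windows, mean 76.2 reads) and Rasgrp2 (0.863%, mean 842 reads). The labels describe both a directional and a non-directional library preparation and do not say which applied. Reads of these overlaps therefore cannot be told apart. Idi1 shared 16.7% of its windows with the processed pseudogene Gm13502, which had 28.3 reads on average. Fdps shared 21.9% with Gm43738, which has no entry in the tables analysed here, and 7.47% with the pseudogene Gm3571, which had 4.12 reads on average, so totals of Idi1 and Fdps are uncertain by the reads so shared.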

How the data were processed

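Frontal cortex of 24 mice was analysed from the transcript tables of the 24 libraries. The deposited tables hold the estimated counts and TPM that the authors made with Salmon. The submitters' processing notes also name STAR, SAMtools and DESeq2, and no versions. Which genome build they used was not stated in the labels. Transcript IDs were matched to GENCODE M21 (GRCm38): 138032 of 149444 (92.4%) were placed in 52352 genes, and 1.17 to 1.67% of reads fell on unplaced mouse transcripts.

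Estimated counts were summed per gene, rounded to whole numbers, filtered with filterByExpr and scaled by TMM. edgeR 4.0.16 (R 4.3.3) fitted genotype and sex over all 24 libraries, with quasi-likelihood tests of 9 comparisons adjusted over 18239 genes by the Benjamini-Hochberg method. CPM are TMM-scaled. Intervals are 95% intervals of the fit. TPM of 6 against 6 mice were compared by exact two-sided permutation over 924 splits. Correlations used log2 CPM with a prior count of 1 and 100000 permutations in scipy 1.17.1. Transcript usage was tested with diffSpliceDGE. The procedures were checked on simulated data with known changes between hTDP+ and hTDP- libraries. The gene test recovered 56% of log2 changes of 0.25, 80% of those of 0.5 and 98% of those of 1, with 5 false calls. This was the average transgene comparison, and the other comparisons were not simulated. The members' fitted changes in it, the largest being -0.09, were smaller than any simulated, so the check does not cover them. The usage test recovered 23.5% of 2-fold shifts, with 0 false calls.

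Each library is a separate mouse. The replicate numbers follow the order of the samples and pair nothing. The members and gene lists were chosen with earlier results of these data known, and the test of the transgene by sex was added after their values were seen. Other genes were named by rule: the 4 smallest p in the average transgene comparison per pathway list, and the 10 profiles most like the members. Some genes these rules select are not reported here. DESeq2 1.42.0, limma 3.58.1 (voom), other scalings, filters, covariates and subsets, length-scaled TPM counts and leaving out each library were alternatives.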

Additional observations from a re-analysis of the deposited data

Results flagged for a closer look

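Of 32 sets of 6 libraries (8 genes in 4 genotypes, in TPM), 2 held a library whose gap to its nearest neighbour exceeded Dixon's 95% limit for 6 values. Chance gives such a gap in about 1 in 20 sets. Fdps stood at 126.5 TPM in Grn+/-:hTDP+ replicate 4, above the other 5 mice. Fdft1 stood at 61.2 TPM in Grn+/+:hTDP+ replicate 2, below the other 5 mice. That library also had the fewest transcripts above 0 and the lowest share of Fdft1-201. Without it the average transgene change of Fdft1 was 0.0060 in place of -0.0054, and its difference between males and females was 0.06 (unadjusted p = 0.0801). The cause was not tested.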

How the results depend on the processing

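No paired analysis was possible because the replicate numbers follow the order of the samples and pair no mice. Age entered as a factor instead, but only replicate 3 of Grn+/-:hTDP- (9.44 months) shared its age with any hTDP+ mouse. That fit therefore had few mice of equal age to compare for the transgene in Grn+/- mice. No member passed the adjusted test under any alternative. Over 880 values of members in other settings the smallest adjusted p was 0.0748 (DESeq2), and over 1728 values with a library left out it was 0.176. Signs changed in 74 of the 880 and 118 of the 1728. The differences between the sexes stayed above 0 for all 8 genes in each setting run. The transgene change of Sqle in Grn+/- mice turned to 0.079 in females only, and lay between -0.046 and 0.016 with a library left out. Precision is limited by 6 mice a group, and most for Idi1, which has few reads.

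Counts of genes called over all genes moved further, and the cause was not tested. With DESeq2 they were 61 for the average transgene, 29 for the transgene in Grn+/+, 10 in Grn+/-, 9 for average Grn, 6 for Grn without and 5 with the transgene, 92 for both changes against neither, 3 for the interaction and 22 for sex. With age as a factor they were 2, 0 (transgene in Grn+/-), 1 (average Grn), 0 and 0 (Grn without and with the transgene) and 3 (both changes). In males only they were 3, 2 and 0 for the transgene (average, Grn+/+, Grn+/-), 2 for average Grn, 1 for Grn without the transgene, 3 for both changes and 1 for the interaction. In females only they were 1, 0 and 0 for the transgene, 0 for each Grn comparison and 1 for both changes. With only the groups compared they were 1 and 1 for the transgene, 0 and 0 for Grn and 2 for both changes. Without a filter they were 2 for the transgene in Grn+/-, 0 for Grn with the transgene and 9 for both changes. Linear age gave 2 for the transgene in Grn+/- and 0 for Grn without the transgene, for which upper-quartile scaling also gave 0. Length-scaled counts gave 0 for Grn with the transgene and 5 for both changes.

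With each library left out in turn, the counts were 14 to 22 (average transgene), 4 to 7 (in Grn+/+), 2 to 4 (in Grn+/-), 4 to 6 (average Grn), 0 to 3 (Grn without the transgene), 1 to 2 (with it), 4 to 16 (both changes), 0 (interaction) and 12 to 16 (sex). Genes with changed transcript usage numbered 35 by limma, 13 by a likelihood ratio test and 1 with a 10% minimum for the transgene, and 2, 3 and 0 for Grn, with 0 to 13 and 1 to 5 when a library was left out. Permutation tests under 0.05 numbered 1 on CPM. Pairs of members that passed numbered 18 with means left in and 7 on log2 TPM.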
